A study of Homo sapiens with 6 samples.

Results

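The genes described here encode the proteins of the cytosolic ribosome, together with a few close paralogs. They were chosen by gene symbol on the array's probe annotation (RPL, RPS and RPLP names with their numbers, without the S6 kinases), and 64 of the 18417 genes with a probe set of their own met the rule. Of these, 36 encode large subunit proteins, 21 encode small subunit proteins and 7 are paralogs of such genes. A further 11 ribosomal protein symbols stood only on probe sets shared with other symbols and are not members. RPLP0, RPSA, RPS27A and RPL39 are not analysed here for want of a probe set of their own. The RNA came from PC3 cells, an androgen-independent prostate cancer line, that had been transfected with a miR-205 mimic (n = 3 arrays) or with a negative control mimic (n = 3 arrays). In both groups the hybridised RNA was what an anti-AGO2 antibody pulled down, AGO2 being an Argonaute protein loaded with microRNAs, and Affymetrix gene arrays were used. According to the series design these were biological triplicates, and its title gives the search for miR-205 targets as the purpose. Without input RNA here, altered loading onto AGO2 and altered amounts of a transcript cannot be told apart, nor can fewer cells and less RNA per cell.

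Ribosomal protein genes encode the structural proteins that fold with ribosomal RNA into the small subunit, which reads the messenger RNA, and the large subunit, which joins the amino acids. Their transcripts are short and abundant. Most begin with a C followed by a run of pyrimidines, the 5′ terminal oligopyrimidine (TOP) tract, through which mTOR signalling and the protein LARP1 control their translation. Many of the genes also carry small nucleolar RNAs (snoRNAs), which guide modification of ribosomal RNA, inside their introns.

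The mature 5′ arm of miR-205 in RefSeq, at chr1:209432166-209432187 on the plus strand of GRCh38.p14, is shown for orientation. The labels do not say which arm the mimic copies. Capitals mark the seed, bases 2 to 8.
hsa-miR-205-5p: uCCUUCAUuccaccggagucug

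The next sequences show the start of the transcripts in members that held their call in every setting described below and in RPL28, which fell. RPL27, which also held its call, and the paralog RPS27L have no tract at the annotated start. In RPL27 a pyrimidine run lies further into the printed bases. RPL7 held its call too and is not printed, as no RefSeq window at its start was found. Each sequence runs 5′ to 3′ over 30 bases of the transcribed strand (GRCh38.p14). It spans from 8 bases before the RefSeq start to 22 bases from the start onward. Capitals mark a pyrimidine tract that begins at the start with C.
RPS23 (chr5:82278333-82278362, minus): gtgcttctCTCTTTCgctcaggcccgtggc
RPL37A (chr2:216498836-216498865, plus): gtctcttcCTTTCTgggctcggacctaggt
RPL22 (chr1:6199574-6199603, minus): ctcacctcCCTTTCTaactccgctgccgcc
RPL26 (chr17:8383172-8383201, minus): gtgtagttCTCTTCCCTTTTgcggccatca
RPL24 (chr3:101686697-101686726, minus): gattctctCTTTCTTTTCgccatcttttgt
RPL18 (chr19:48619157-48619186, minus): cccgttctCTCTTTCCggacctggccgagc
RPL28 (chr19:55385924-55385953, plus): tcgccttcCTCTTTCCgtctcaggtcgccg
RPS27L (chr15:63157456-63157485, minus): tgccgagcgcagatcgcttgcagcttgcta
RPL27 (chr17:42998411-42998440, plus): gaaaggttagcggaagtgtccttctttcct

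As a check of the cell line, the expected genes KRT8, KRT18, VIM and CD44 all exceeded 6.04. That limit for dim signal is the 95th percentile over 341 genes for olfactory receptors. These expected genes were not steady between groups, and each passed the test. With miR-205, KRT8 (log2 difference 0.888) and KRT18 (0.548) were higher, and VIM (-0.256) and CD44 (-0.285) were lower. The prostate secretory genes KLK3 and KLK2, which PC3 cells should lack, lay near that limit (6.06 and 6.38 with miR-205, 6.08 and 6.39 in the control). Of markers of other cells, 4 of 6 for fibroblasts, 1 of 4 for leukocytes and 1 of 3 for hepatocytes lay above it. Among these were COL1A1 (9.05 with miR-205 and 8.94 in the control), APOA1 (7.37 and 7.32) and CD14 (6.247 and 6.415). PTPRC (3.61 in both groups) and ALB (4.02 with miR-205 and 3.93 in the control) were dim. The fibroblast markers PDGFRA (-0.31) and LUM (0.36, dim) passed the test in opposite directions, and their part in the results was not tested. All 64 ribosomal protein genes lay above the limit. One control array stood apart from the others. On the second principal component over all genes, negative control replicate 2 had a score of -18.14, against 0.204 to 7.677 for the other 5 arrays. On the first component it scored 11.23, nearer to the miR-205 arrays (-19.62 to -18.32) than the other control arrays (22.23 and 23.79). Counts are therefore also given without negative control replicate 2.

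In the AGO2 immunoprecipitate, a minority of ribosomal protein transcripts were higher with the miR-205 mimic, by small amounts, and most did not pass the test. Of the 64 genes, 24 rose, 1 fell and 39 did not pass, at an adjusted p under 0.05 by limma with Benjamini-Hochberg adjustment over all 18417 genes. Over all genes 12.6% rose and 14.0% fell, against 37.5% of the members that rose. The median log2 difference, miR-205 mimic minus negative control, was 0.19 over the members, against -0.02 over all genes. The estimate was above 0 for 57 members and below 0 for 7. A change of at least 1.5-fold was reached by 2 genes, RPS23 and RPL37A. The 3 miR-205 arrays all lay above the 3 control arrays for 40 members and all below for 1, against 19.9% and 22.2% of all genes. Without negative control replicate 2, 27 members rose and 1 fell. Leaving out 1 of the other 5 arrays gave 12 to 18 rises and 0 to 1 falls. The rises were 12 without miR-205 replicate 3, 13 without negative control replicate 3 and 15 without miR-205 replicate 2. Calls over all genes changed as well, from 2320 rises with all arrays to 1619 without miR-205 replicate 1. In that fit 18 members rose.

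**Figure D1:**
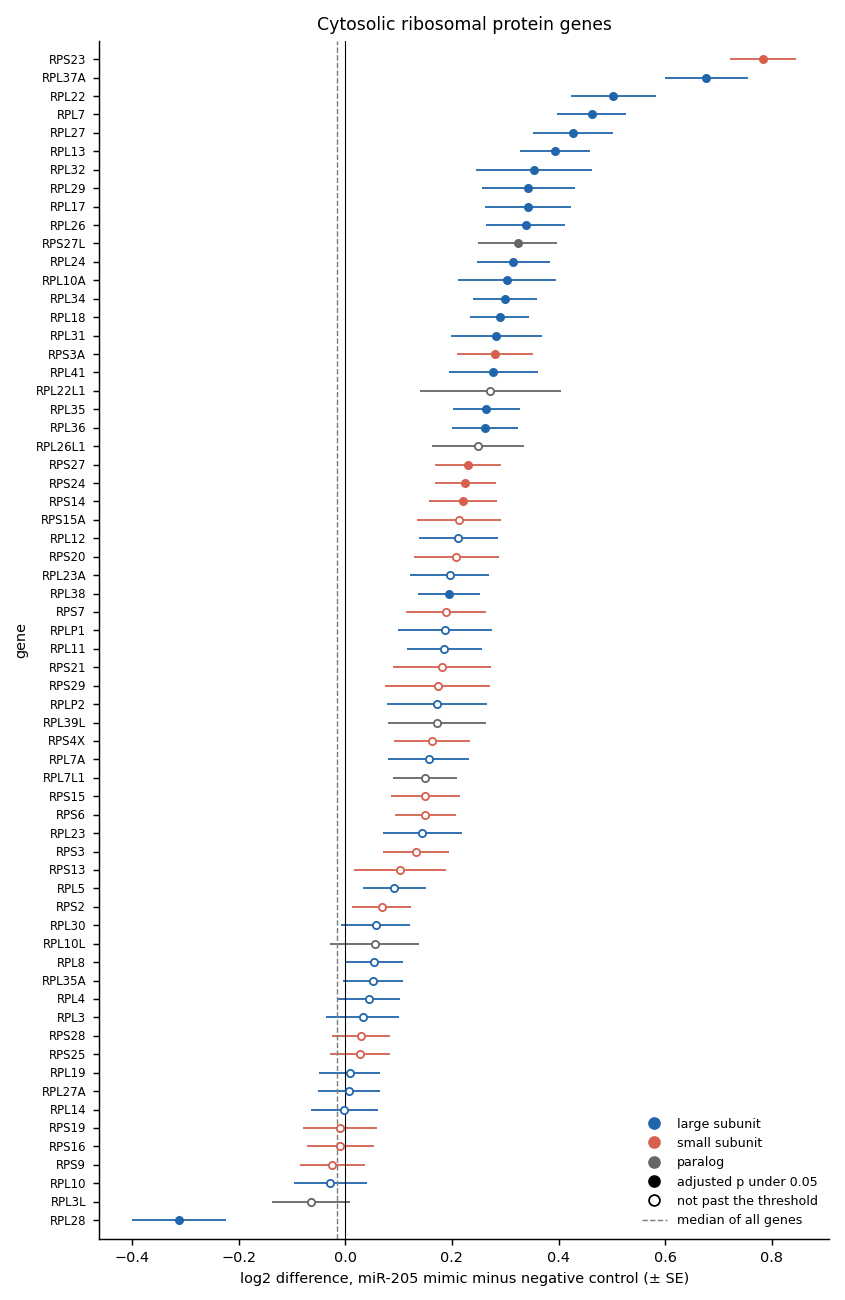
Log2 difference (miR-205 mimic minus negative control) with its limma standard error for the 64 ribosomal protein genes, ordered by size and coloured by subunit. Filled points passed an adjusted p under 0.05 (24 higher, 1 lower), and the dashed line marks the median of all genes at -0.02.

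Averaged over the 64 members, the log2 intensity was 11.25, 11.24 and 11.30 in the miR-205 arrays, against 11.07, 11.13 and 11.01 in negative control replicates 1, 2 and 3. The miR-205 arrays were close to each other, and negative control replicate 2 was the control nearest to them. It was the highest control array for 41 of the 64 members and for 16 of the 24 that rose, and negative control replicate 3 was the lowest for 44 and 15. The mean over all genes lay between 7.776 and 7.794 in the miR-205 arrays and between 7.786 and 7.796 in the control arrays. The part of negative control replicate 2 in these results was measured only by leaving it out, which raised the members' median difference to 0.22.

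Among small subunit genes, RPS23, whose protein sits at the decoding centre, rose most of all members. Its log2 intensity was 12.01, 12.02 and 11.95 in the miR-205 arrays, against 11.29, 11.17 and 11.16 in the control arrays. The groups lay far apart compared with the spread within either, and the log2 difference was 0.78 ± 0.06 (SE, n = 3 each, adjusted p = 7.91e-05). RPS3A, which rose by 0.28 ± 0.07, had 11.49, 11.57 and 11.55 with miR-205 and 11.36, 11.27 and 11.14 in the control arrays. Its highest control array lay close below its lowest miR-205 array, and its adjusted p was 0.0189.

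The other small subunit genes that rose did so by less. RPS27, a zinc finger protein, rose by 0.23, RPS24, mutated in some families with Diamond-Blackfan anaemia, by 0.22, and RPS14, lost in the 5q- syndrome, by 0.22 (adjusted p = 0.0238, 0.0198 and 0.0334). In all, 5 of 21 small subunit genes rose (23.8%) and 0 fell, with a median of 0.16. Over all genes 12.6% rose and 14.0% fell. Without negative control replicate 2, 6 rose, and with any 1 of the other arrays left out 1 to 3 did. RPS23 was the only one of the 5 that passed in each of the 16 other settings tried.

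Several well-known small subunit genes did not pass. RPS6, the S6 kinase substrate, had 12.75, 12.75 and 12.71 with miR-205 and 12.60, 12.63 and 12.53 in the control (difference 0.15, adjusted p = 0.089). Its groups did not overlap. RPS4X, encoded on the X chromosome, differed by 0.16 ± 0.07 (adjusted p = 0.13). RPS19, the gene most often mutated in Diamond-Blackfan anaemia, differed by -0.01 ± 0.07 with overlapping groups, and RPS16 and RPS9 also lay within 0.03 of 0. The standard errors of RPS19, RPS16 and RPS9 were 0.06 to 0.07. A true change larger than its standard error remains possible for each.

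Of 36 large subunit genes, 18 rose and 1 fell, while 17 missed the threshold. Their median was 0.20. Without negative control replicate 2, 19 rose and 1 fell, and with any 1 of the other arrays left out 10 to 14 rose and 0 to 1 fell, with 10 rises without miR-205 replicate 3 and 11 without negative control replicate 3. Rises thus made up 18 of 36 large subunit genes and 5 of 21 small subunit genes, with medians of 0.20 and 0.16, and the difference between the subunits was not tested.

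RPL37A, a small zinc ribbon protein of the large subunit, had 9.03, 9.01 and 9.06 in the miR-205 arrays, against 8.20, 8.47 and 8.40 in the control arrays. The miR-205 arrays lay within 0.1 of each other and the control arrays were more spread, with a difference of 0.68 ± 0.08 (adjusted p = 0.000445). RPL22, an RNA-binding protein of the large subunit that mice can live without, had 8.47, 8.46 and 8.47 with miR-205, against 7.82, 8.12 and 7.96 in the control. The miR-205 arrays were nearly identical, negative control replicate 2 was the nearest control, and the difference was 0.50 ± 0.08 (adjusted p = 0.0022).

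RPL7 was among the brightest genes to rise, with 13.16, 13.19 and 13.12 in the miR-205 arrays and 12.79, 12.68 and 12.62 in the control arrays (0.46 ± 0.07, adjusted p = 0.00123). RPL27 had 10.53, 10.33 and 10.54 with miR-205, against 9.99, 10.02 and 10.11 in the control (0.43 ± 0.08, adjusted p = 0.00369). Neither gene's groups overlapped. RPL13 rose by 0.39 ± 0.07 (adjusted p = 0.00298). Its means were 10.7 ± 0.09 in the miR-205 arrays and 10.3 ± 0.05 in the control arrays (SD). With its lowest probe set RPL13 did not pass (0.196, adjusted p = 0.228).

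RPL26, a large subunit protein mutated in some patients with Diamond-Blackfan anaemia, had 10.73, 10.87 and 10.81 with miR-205 and 10.50, 10.56 and 10.35 in the control (0.34 ± 0.07, adjusted p = 0.00986). RPL24, which forms a bridge to the small subunit, had 12.22, 12.32 and 12.38 with miR-205 and 12.04, 12.02 and 11.92 in the control (0.32 ± 0.07, adjusted p = 0.00929). RPL18 had 13.14, 13.13 and 13.09 with miR-205 and 12.85, 12.83 and 12.81 in the control (0.29 ± 0.06, adjusted p = 0.00532). In all 3 genes the lowest miR-205 array lay above the highest control array. Together with RPS23, RPL37A, RPL22, RPL7 and RPL27, these were the 8 members that passed in all 16 other settings.

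**Figure D2:**
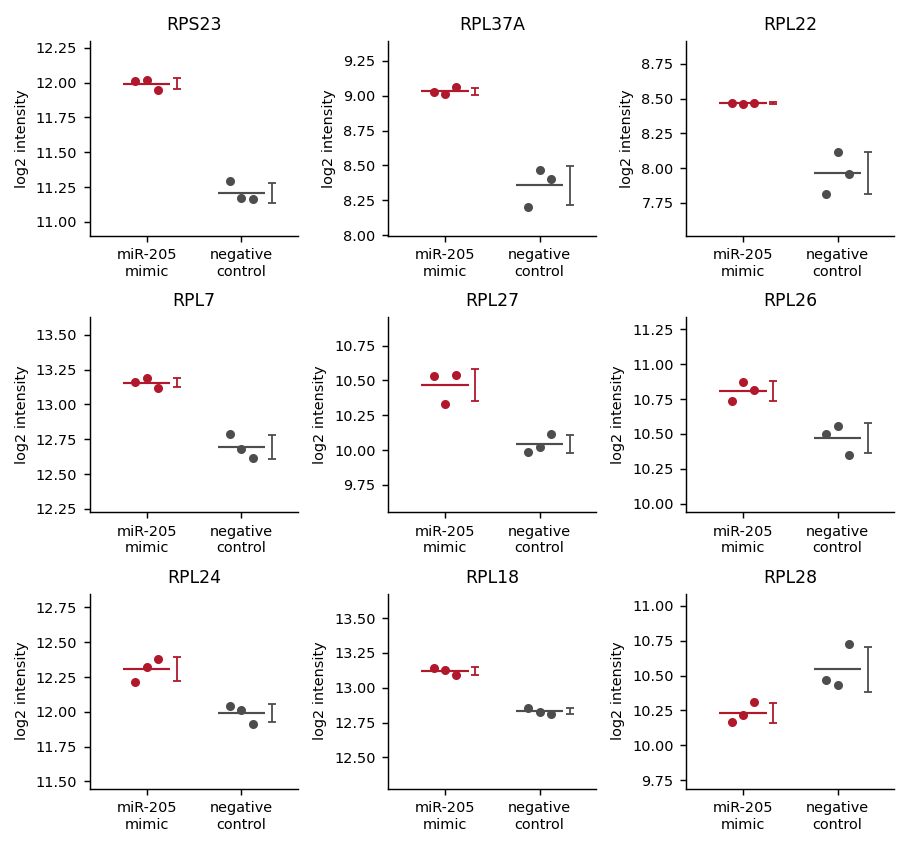
Log2 intensity per array (points), group mean (line) and SD (bar, n = 3) with the miR-205 mimic and the negative control, for the 8 members called in every setting and for RPL28, the only member that fell. All panels span the same range, which does not start at 0, and the groups do not overlap in any panel.

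The remaining large subunit genes that rose had differences of 0.20 to 0.35. RPL32 (0.35), RPL29 (0.34), RPL17 (0.34), RPL10A (0.30), RPL34 (0.30) and RPL31 (0.28) were among them, as were RPL35 (0.26), RPL36 (0.26) and RPL38 (0.20), a protein known in mice for its part in translating Hox transcripts. RPL41, which encodes a very short, basic peptide, rose by 0.28 ± 0.08 (adjusted p = 0.0388). Several of these calls did not hold when an array was left out. RPL32, RPL10A and RPL38 passed in 1 of those 6 fits, and RPL41 and RPL31 in 2. RPL41, whose adjusted p reached 0.817 with its lowest probe set, also missed the threshold without negative control replicate 2. RPL34, by contrast, passed in all 6, and RPL35 and RPL36 in 5. With its lowest probe set, which was dim, RPL34 did not pass (0.502, adjusted p = 0.0637).

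RPL28, a large subunit protein that budding yeast lacks, was the only member that fell. It had 10.17, 10.22 and 10.31 in the miR-205 arrays, against 10.47, 10.43 and 10.73 in the control arrays, and fell by 0.31 on the log2 scale (SE 0.09, adjusted p = 0.03). The groups did not overlap, and the highest value was in negative control replicate 3. Without that array, without miR-205 replicate 1 or without miR-205 replicate 2 it did not pass (adjusted p = 0.069, 0.1 and 0.0895), and its estimates over all settings ran from -0.37 to -0.22.

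Members of the 5S particle, which joins the large subunit as a unit with 5S ribosomal RNA, did not pass. RPL5 had 13.73, 13.75 and 13.66 with miR-205 and 13.62, 13.66 and 13.58 in the control (difference 0.09, adjusted p = 0.298). RPL11 had 12.29, 12.20 and 12.26 with miR-205 and 12.10, 12.14 and 11.94 in the control (difference 0.19, adjusted p = 0.0857), and passed without negative control replicate 2 (0.225, adjusted p = 0.0483). The RPL5 groups overlapped and the RPL11 groups did not. The stalk proteins RPLP1 (0.19, adjusted p = 0.158) and RPLP2 (0.17, adjusted p = 0.217), which recruit translation factors, overlapped between groups. Without miR-205 replicate 3 their differences were 0.112 for RPLP1 and 0.0764 for RPLP2. RPL3, at the peptidyl transferase centre (0.03, adjusted p = 0.777), and RPL10, one of the last proteins to join the subunit (-0.03, adjusted p = 0.811), were near 0.

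Among the 7 paralogs 1 rose, which does not set them apart from all genes, of which 12.6% rose. RPS27L, a close relative of RPS27, was the paralog that rose, by 0.32 ± 0.07 (adjusted p = 0.0124). It had 7.02, 7.09 and 7.12 with miR-205 and 6.71, 6.89 and 6.66 in the control, and its control array nearest to the miR-205 arrays was replicate 2. RPL22L1, which RPL22 is known to repress in mice, had 6.31, 5.999 and 6.56 with miR-205 and 6.02, 6.15 and 5.88 in the control (difference 0.27, adjusted p = 0.171). It passed without miR-205 replicate 2 (0.417, adjusted p = 0.0336), and its difference was 0.137 without miR-205 replicate 3. Its miR-205 arrays were spread and overlapped the control arrays, and both group means were near the limit for dim signal. RPL26L1, a near copy of RPL26, differed by 0.25 (adjusted p = 0.0648). It passed without miR-205 replicate 3 (adjusted p = 0.0285). With near copies such as these, a probe may also bind the other transcript. RPL39L and RPL10L, known from the testis, RPL3L, known from muscle, and RPL7L1 did not pass (differences of 0.17, 0.06, -0.06 and 0.15). RPL39L passed without negative control replicate 2 (0.256, adjusted p = 0.0452), while without miR-205 replicate 1 it differed by 0.112 and without negative control replicate 3 by 0.0989.

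Of 20 genes mutated in Diamond-Blackfan anaemia, an inherited failure of red cell production, 16 were members. Of these 7 rose (43.8%) and 0 fell, beside 37.5% of all members and 12.6% of all genes that rose. Their median was 0.21, close to the 0.19 of all members. Those that rose were RPL27, RPL26, RPL18, RPL31, RPL35, RPS27 and RPS24.

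Values were also read by signal level. Of 9 members with a mean log2 intensity above 13, 1 rose (RPL41), the others (RPL5, RPS2, RPL30, RPL8, RPL3, RPS28, RPS25 and RPL14) lay between -0.002 and 0.09, and the median of the 9 was 0.05. Just under that level, RPL18 (mean 12.98) and RPL7 (mean 12.93) rose by 0.29 and 0.46, so the count depends on where the line is drawn. With the signal trend removed from the arrays, 25 members rose, and after repeated quantile normalization 19 did. That normalization lowered RPL18 to 0.188 and RPL7 to 0.377, which still passed. It lowered RPL41 to 0.166, which did not pass (adjusted p = 0.154). The brightest, RPS28, had 14.02, 14.02 and 14.04 with miR-205 and 14.00, 14.01 and 13.98 in the control, where the highest value of any probe set was 14.38. Over the 64 members the Pearson correlation of the difference with the mean signal was -0.194, a description across genes that share the arrays. The corresponding value over all genes was -0.00144. Among all genes with a mean above 10, 18.4% rose, against 19 of 51 members in that range (37.3%). No share over all genes was taken above 13, so the 1 of 9 there has no matched background. Whether signal near the top of the scale hides changes of the brightest members was not tested.

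**Figure D3:**
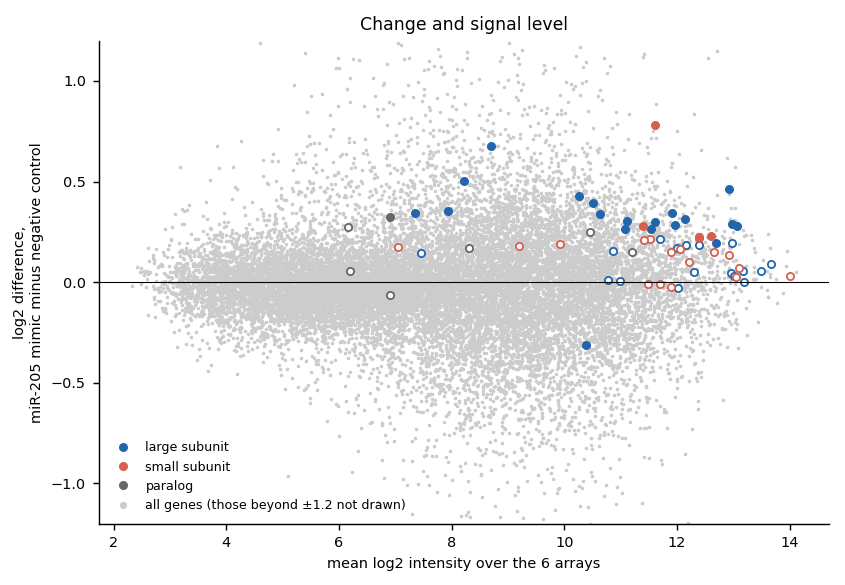
Log2 difference (miR-205 mimic minus negative control) against mean log2 intensity over the 6 arrays, for all genes (grey, the most extreme not drawn) and for the ribosomal protein genes by subunit (filled where adjusted p was under 0.05). Ribosomal protein genes cluster on the bright side and 57 of 64 lie above 0, with the 9 members above 13 close to 0 apart from RPL41.

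The 64 genes had 99 probe sets of their own, and the brightest per gene was used. For 23 genes with more than 1, the differences of the probe sets of a gene spread by a median of 0.072. The 3 probe sets of RPL7 gave 0.46 to 0.48 and the 5 of RPS3A 0.20 to 0.28. The widest spread, 0.67, was that of RPL27A. Its brightest probe set had 10.98, 10.98 and 11.04 with miR-205 and 11.03, 11.01 and 10.94 in the control, and did not differ beyond its error (0.01 ± 0.06, adjusted p = 0.952). A second RPL27A probe set had 9.67, 9.49 and 9.52 with miR-205 and 10.29, 10.21 and 10.17 in the control. It fell by 0.66 on the log2 scale in the fit over all 33297 probe sets (SE 0.07, adjusted p = 0.00294), and a further one differed by -0.15. RPL31 had 0.28 and 0.64 for its pair of probe sets, and RPS15 had 0.15 and -0.19. The pair of RPL14 also differed in sign, at -0.002 and 0.06. RPL41 had a pair of probe sets with identical values and a further one that differed by 0.04. Ribosomal protein genes have many processed pseudogenes of nearly the same sequence, so probe sets may read more than 1 copy. In the fit over all probe sets, 23 of the 99 rose and 1 fell, against 7.44% and 7.08% of all probe sets.

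The TOP tract was searched in RefSeq windows of the members as a C at the annotated start followed by at least 4 bases that are each C or T, on the transcribed strand only. A window was found for 53 of the 64 members, and 37 of these (69.8%) held the tract in at least 1 window, against 6.27% of 14237 genes on the array with a window. Tracts were 5 to 16 bases long, with a median of 8. Among members that rose, 18 of 23 with a window held it, and among members that did not pass, 18 of 29 did. The median difference was 0.21 for the 37 members with the tract and 0.17 for the 16 without. RPL28, which fell, held it too. Of the paralogs, 1 of 5 held it (RPL22L1). A start that the annotation places a few bases away from the true one would miss the tract, so the shares describe these windows only.

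Other genes tied to the ribosome were read from lists. Of 24 other TOP transcripts, 19 were measured, of which 3 rose and 2 fell, with a median of 0.05. The helicase gene EIF4A2 (0.32, adjusted p = 0.0118), the initiation factor subunit EIF3E (0.24, adjusted p = 0.031) and NACA, which binds nascent chains (0.18, adjusted p = 0.0442), rose. EIF4B (-0.30, adjusted p = 0.00595), an initiation factor, and the histone chaperone gene NAP1L1 (-0.32, adjusted p = 0.00766) fell. The share that rose (15.8%) was near the 12.6% of all genes. With 1 array other than negative control replicate 2 left out, 1 to 2 rose. Of the ribosomal proteins outside the rule, 2 of 4 were measured, and FAU, the source of a small subunit protein, was the nearest to passing (0.19, adjusted p = 0.0632).

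Of 36 measured ribosome assembly genes, 7 rose (19.4%) and 3 fell, where 12.6% of all genes rose and 14.0% fell, and the median was 0.05. WDR12, part of a complex that matures the large subunit, rose by 0.87 ± 0.08 (adjusted p = 0.000188). EIF6, which keeps the subunits apart (0.41, adjusted p = 0.000943), and PNO1, a small subunit assembly factor (0.35, adjusted p = 0.00267), rose too. TSR1, another such factor, fell by 0.32 on the log2 scale (adjusted p = 0.00367). Without negative control replicate 2, 8 rose and 4 fell, and with any 1 of the other arrays left out 3 to 5 rose and 1 to 2 fell, with 3 rises without miR-205 replicate 2 and 4 without miR-205 replicate 1 or negative control replicate 3. Of 12 genes for RNA polymerase I and its factors, 0 rose (also 0 at an unadjusted p under 0.05) and 2 fell by limma, and 0 fell without negative control replicate 1, negative control replicate 3, miR-205 replicate 2 or miR-205 replicate 3. Those that fell were the initiation factor gene RRN3 (-0.39, adjusted p = 0.0423) and the largest subunit gene POLR1A (-0.24, adjusted p = 0.047). The RRN3 groups overlapped and the POLR1A groups did not.

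Among 19 measured genes of a list for TOP and S6 signalling, 8 fell and 2 rose, and the median was -0.17. Over all genes 14.0% fell and 12.6% rose. The list was broader than mTOR and the S6 kinases. MDM2 was among its falls (-0.18, adjusted p = 0.0488) and LARP4 among its rises (0.49, adjusted p = 0.00744). RPS6KA3, an ERK-activated kinase of S6, fell by 0.52 on the log2 scale (adjusted p = 0.000573). RPTOR, the scaffold of mTOR complex 1, fell by 0.43 (adjusted p = 0.00366), and TSC1, which restrains mTOR, by 0.48 (adjusted p = 0.00738). RPS6KA1, a relative of RPS6KA3, rose by 0.33 (adjusted p = 0.00435). With any 1 array left out, 4 to 5 fell and 2 to 3 rose. Of 74 mitochondrial ribosomal protein genes, which build a separate ribosome, 26 rose (35.1%) and 3 fell, with a median of 0.17, beside 37.5% and 0.19 for the cytosolic ones. Without negative control replicate 2 the mitochondrial count was 35 rises and 2 falls, and with any 1 of the other arrays left out it was 15 to 21 rises, with 15 without negative control replicate 3, 16 without miR-205 replicate 1 and 17 without miR-205 replicate 2.

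Among snoRNAs inside ribosomal protein genes, 30 of 54 listed were measured, all lying within their host gene in RefSeq. Of these 13 rose (43.3%, against 12.6% of all genes), 0 fell and 17 missed the threshold. The estimate was above 0 for 28 of the 30, with a median of 0.31. Without negative control replicate 2, 16 rose, and with any 1 of the other arrays left out 8 to 11 did, with 8 without miR-205 replicate 3. Signal was dim for 9 of the 30. For 16 of them the host was a member, and 7 of those rose. The estimate of the snoRNA was above that of its host for 12 of the 16.

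SNORD58A, in an intron of RPL17, had 6.38, 6.43 and 6.63 with miR-205 and 5.16, 6.04 and 5.06 in the control, a difference of 1.06 ± 0.22 (adjusted p = 0.00865). SNORD15A, in RPS3, had 7.93, 7.90 and 8.15 with miR-205 and 6.81, 7.48 and 6.81 in the control (0.96 ± 0.17, adjusted p = 0.00374). Replicate 2 was the control array closest to the miR-205 values in both. SNORA21, in RPL23, differed by 0.60 ± 0.11 (adjusted p = 0.00374) and SNORA33, in RPS12, by 0.66 ± 0.11 (adjusted p = 0.00288). Of the hosts that are members, RPL17 rose by 0.34, while RPS3 (0.13, adjusted p = 0.158) and RPL23 (0.14, adjusted p = 0.194) did not pass. SNORD54, in RPS20, and SNORA52, in RPLP2, were near 0 (both -0.03).

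**Figure D4:**
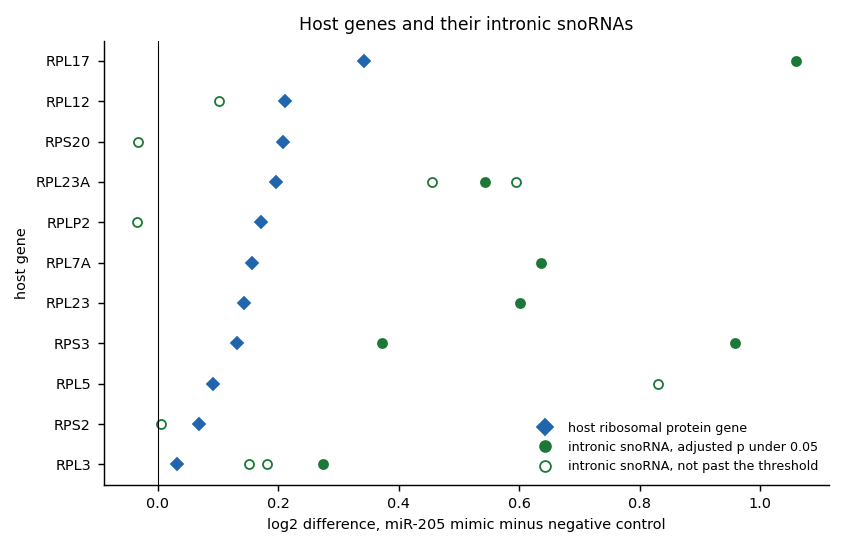
Log2 difference (miR-205 mimic minus negative control) of the 11 host ribosomal protein genes with a measured intronic snoRNA (diamonds) and of their 16 snoRNAs (circles, filled where adjusted p was under 0.05). The circles lie to the right of the diamond for 12 of the 16 snoRNAs.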

How the data were processed

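Per the submitters' processing notes, RMA and Affymetrix Expression Console (version 1.1.2) made the deposited log2 intensities per probe set, which were not normalized again. Of 33297 probe sets, 19460 named a single gene symbol. Each of 18417 genes was represented by its probe set of highest mean over the 6 arrays, and the 64 members all matched RefSeq by gene number. Arrays have no read depth, and their number (3 per group) limits the precision. limma 3.58.1 (R 4.3.3; lmFit, eBayes) compared the groups with no covariate, two-sided, and p-values were adjusted by Benjamini-Hochberg across all genes, with 0.05 as threshold. Adjusted p-values are from that fit unless a setting is named, and the fit was tested on simulated data. Named genes were the called members without overlap between groups (20 largest rises at most), a set of members named whatever their values, the 3 brightest and 3 dimmest members, and up to 4 called genes per list by p. Any other gene was named after its values were seen. One gene that this rule names is not reported here. The members and lists were chosen with earlier results of these data known. Alternatives were other normalizations, a filter on dim genes, other probe set choices, variance models, array weights, a replicate block and leaving out each array. The counts of gene lists with an array left out were added after seeing the data. RefSeq sequences are from GRCh38.p14. Paralog identities and a split by protein length were planned and not run, as no protein table was used here.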

Additional observations from a re-analysis of the deposited data

Results flagged for a closer look

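Probe sets that name a ribosomal protein gene together with at least 1 further symbol were used in no comparison above. Of 47 such probe sets, 16 were higher and 0 lower with the miR-205 mimic in the limma fit over all 33297 probe sets (34.0% higher, against 7.44% of all probe sets), with a median log2 difference of 0.28. They cannot be assigned to 1 gene.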

How the results depend on the processing

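The count of members that rose was 24, and 16 to 35 under the 10 settings that kept all arrays. It was 16 when all probe sets were tested, 19 after repeated quantile normalization, 19 with a replicate block, and 35 with a trend and robust variance. Rises over all genes were 2320 in the main fit and 1629, 2276, 2204 and 2616 in those settings, in that order. With 1 array left out the members' count was 12 to 27. The count of members that fell was 1, with 0 when all probe sets were tested, 2 when the probe sets of a gene were averaged, and 0 to 1 with 1 array left out. The members' median stayed between 0.15 and 0.22. Of the 25 calls, 8 were kept in all 16 settings and 10 in all 6 fits that left out an array. Deviations of same-numbered arrays from their group means correlated weakly (0.063, 0.091 and 0.01). With 3 arrays per group these correlations cannot settle whether same-numbered arrays were processed as pairs, and the labels do not say. The replicate block kept 20 of the 25 calls. Signs changed for genes near 0 that did not pass: RPL3 (-0.0816) and RPS28 (-0.051) after repeated quantile normalization, RPL3 without miR-205 replicate 1 (-0.0043), RPL10 without negative control replicate 2 (0.0281) and RPL10L without negative control replicate 3 (-0.0314). With 1 array left out RPL10 ran from -0.0775 to 0.0281 and RPL10L from -0.0314 to 0.114. The causes were not tested.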
